A study of Homo sapiens with 6 samples.

Results

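The 40 genes described here encode proteins of the lysosome and of autophagy, and they were measured in A549 cells, an established line from a human lung adenocarcinoma. They were given as a list of gene symbols and found through the array platform's annotation, and for each gene the probe set with the brightest mean over the 6 arrays was used among those assigned to a single gene. All 40 of the 40 were found, among 18417 genes tested, and they divide into 22 lysosomal and 18 autophagy genes. The series holds 3 arrays of stable cells whose labels give an H2AX knockdown, H2AX being a histone variant that is phosphorylated around broken DNA, and 3 arrays of control stable cells. Both groups had been starved of serum overnight and then given VP-16 (etoposide) for 48 h. Etoposide holds topoisomerase II on cut DNA, which leaves strand breaks. Neither the constructs nor the number of stable lines per group is given in the sources used here, and no pairing or batch is stated. The comparison asks how expression differs between these cells under the drug, and no untreated cells were analysed here. The arrays of a group are described as independent experiments, so p-values reflect variation among experiments, and a difference between stable lines cannot be told apart from the label.

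Lysosomes are acidic organelles in which hydrolases digest proteins, sugar chains and lipids that arrive by endocytosis or autophagy. In autophagy a membrane grows around a portion of cytoplasm and closes into an autophagosome, which then fuses with a lysosome. Small ubiquitin-like proteins of the ATG8 family are coupled to lipid on that membrane, where they hold receptors that bring in cargo. TFEB and its relatives are transcription factors that switch on lysosomal genes through an E-box sequence in their promoters.

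The label was first checked against its target, and the H2AX signal did not read lower where knockdown was labelled. Its probe set read 5.28, 5.17 and 5.49 in those 3 arrays, against 5.11, 5.27 and 5.26 in the control arrays (log2 signal). The difference was 0.10 (limma adjusted p = 0.823), and its 95% interval ran from −0.25 to 0.45. A 2-sided exact permutation test gave p = 0.4, where 0.1 is the smallest p possible with 3 against 3 arrays. A lower H2AX signal was thus not detectable here, and each difference below is that of the arrays labelled knockdown minus control. Knockdown-labelled array 1 stood apart from the others: its values had an SD of 1.60 over all probe sets, against 1.71 and 1.74 in the other knockdown-labelled arrays and 1.77 to 1.86 in the controls. Bright genes in general read lower in the knockdown-labelled arrays. With all genes put into 5 equal groups by mean signal, the quintiles, the median log2 difference was −0.25 in the brightest and 0.15 in the dimmest. Over all genes 5 were lower and 1 was higher past an adjusted p of 0.05, against 4 and 0 with array medians subtracted, and 0 after quantile normalization or cyclic loess (limma, with 1495 and 1506 genes at an unadjusted p under 0.05).

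None of the 40 genes passed the threshold, where 0.0326% of all genes did, 0.0271% lower and 0.00543% higher (limma, Benjamini-Hochberg over all genes). The smallest adjusted p among them was 0.273. Differences were below 0 for 37 of the 40, for 29 after quantile normalization, for 25 after cyclic loess and for 34 without knockdown-labelled array 1. Over all genes 51.5% were below 0. The median difference of the 40 genes was −0.24, against −0.01 for all genes, and it was −0.11 after quantile normalization, −0.08 after cyclic loess and −0.14 without knockdown-labelled array 1. In bulk RNA, fewer cells of a kind and less RNA per cell cannot be told apart.

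**Figure D1:**
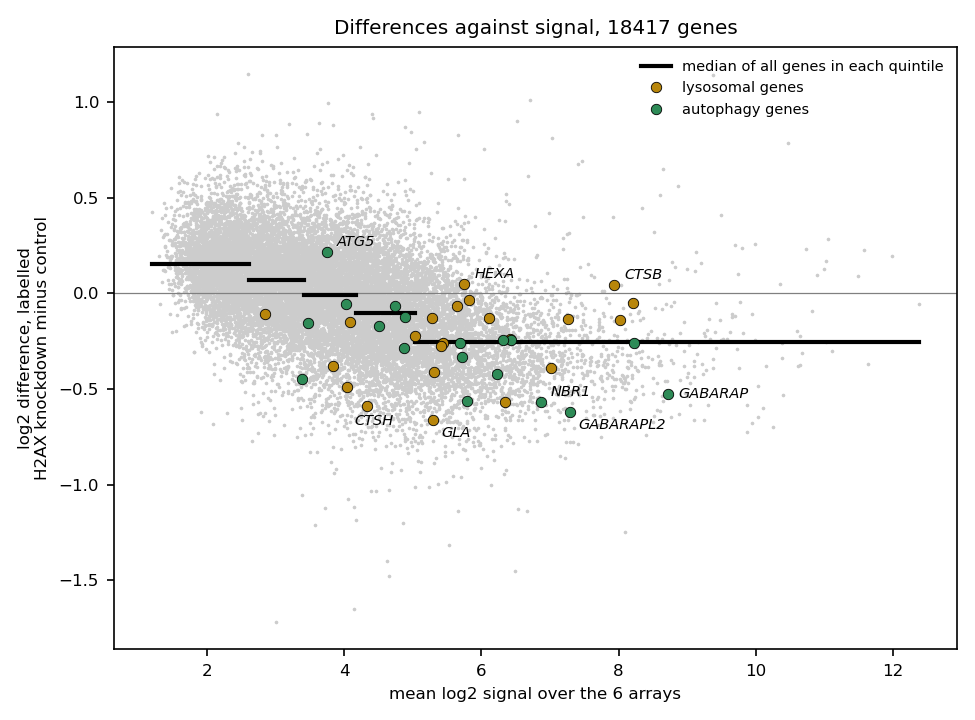
Log2 difference, arrays labelled H2AX knockdown minus control, on the vertical axis against the mean log2 signal over the 6 arrays, for 18417 genes (grey), with the 22 lysosomal genes (gold), the 18 autophagy genes (green) and the median of each quintile of genes by signal (black bars). Most of the 40 genes lie in the brightest quintile, scattered around its median of −0.25, which was −0.07 after quantile normalization and −0.03 after cyclic loess.

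Of the 40 genes 26 lay in the brightest quintile, and their median difference was −0.26, against −0.25 for all 3684 genes of that quintile. Of these 26 genes 24 were below 0, against 85.3% of the quintile, 6 were lower at an unadjusted p under 0.05, against 22.9%, and 5 separated without overlap, against 23.2%. After quantile normalization both medians were −0.07, and without knockdown-labelled array 1 they were −0.09 for the 26 genes and −0.14 for the quintile. Before adjustment, 7 of the 40 (17.5%) were lower at a p under 0.05 and 0 were higher, against 8.38% and 3.78% of all genes. With the 5 quintiles weighted as the 40 genes fill them, the share of all genes that were lower was also 17.5%. The share that were higher was then 1.48%. The count of 7 was 5 after quantile normalization, against 5.58% of all genes, and 5 after cyclic loess, against 5.2%. After cyclic loess 1 of the 40 was higher at that p. The lower count was 4 without control array 1 (3.34% of all genes) and 12 without control array 2 (10.5%). Without knockdown-labelled array 3 it was 13 (10.9%), and with array weights 12 (12%). In 9 of the 40 (22.5%) every knockdown-labelled array read below every control array, against 9.82% of all genes, or 18.4% with the quintiles so weighted. For none of the 40 did the groups separate the other way, against 7.17% of all genes, or 2.27% so weighted. A share below 0 of 92.5% stood beside 74.9% for all genes so weighted. By class, the median was −0.19 for the lysosomal and −0.26 for the autophagy genes, and −0.07 and −0.10 after cyclic loess. Below the median of their own quintile lay 12 of the 22 lysosomal and 14 of the 18 autophagy genes. Lower at an unadjusted p under 0.05 (limma) were 3 lysosomal (13.6%) and 4 autophagy genes (22.2%), or 3 and 2 after quantile normalization. A difference between the classes was not tested.

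Array by array, the medians of the 2 lists lay near those of the brightest genes, apart from the autophagy genes in knockdown-labelled array 2. As deviations from the control mean, the 22 lysosomal genes had medians of −0.43, −0.10 and −0.07 in knockdown-labelled arrays 1, 2 and 3, and of 0.16, −0.21 and 0.05 in control arrays 1, 2 and 3. Control array 2 thus read lower for the lysosomal genes than knockdown-labelled arrays 2 and 3 did. The median of the 18 autophagy genes was −0.51, −0.33 and −0.11 in the knockdown-labelled arrays, and 0.14, −0.18 and 0.04 in the controls, so control array 2 lay below knockdown-labelled array 3. The brightest quintile of all genes read −0.45, −0.15 and −0.13 in the knockdown-labelled arrays, and 0.14, −0.15 and 0.01 in the controls. Of the 40 genes 29 had their lowest value of the 6 arrays in knockdown-labelled array 1, and 25 had their highest in control array 1.

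**Figure D2:**
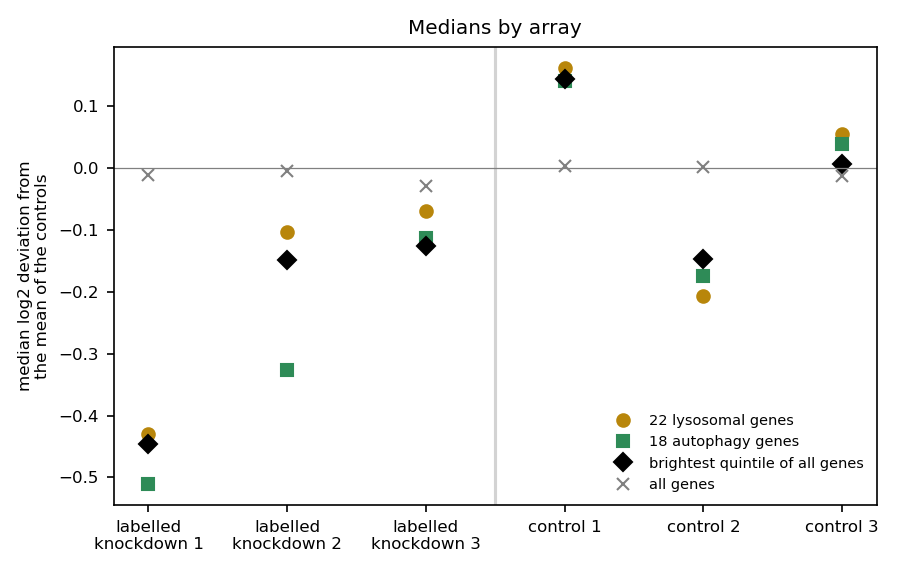
Median log2 deviation from the mean of the 3 control arrays, for the 22 lysosomal genes, the 18 autophagy genes, the brightest quintile of all genes and all genes, in each of the 6 arrays (1 point per list and array, deposited values). Knockdown-labelled array 1 was lowest for both lists and for the brightest quintile, and control array 2 was lowest of the controls, at −0.21 for the lysosomal and −0.18 for the autophagy genes.

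None of the lysosomal proteases separated the groups. The 8 cathepsins had a median of −0.19, with 7 below 0, but a median of 0.05 after quantile normalization and 0.08 after cyclic loess, and −0.04 without knockdown-labelled array 1. CTSD, the main aspartic protease of the lysosome, read 7.80, 8.35 and 8.39 in the knockdown-labelled arrays, against 8.27, 8.11 and 8.31 in the controls. CTSB, a cysteine protease, read 7.62, 8.09 and 8.17, against 8.07, 7.72 and 7.96 in the controls. Both genes overlapped between the groups, and their differences were −0.05 with a 95% interval of −0.45 to 0.35 for CTSD, and 0.04 for CTSB. CTSZ, a carboxypeptidase, was at −0.07, and CTSA, a carboxypeptidase that also shields GLB1 and NEU1 from breakdown, was at −0.13. CTSL, an endopeptidase, was at −0.24, and CTSC, which activates granule proteases, was at −0.26. Without knockdown-labelled array 1 CTSL was at −0.11 and CTSC at −0.04, and without control array 1 they were at −0.13 and −0.08.

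The values of CTSH turned on 1 array. This aminopeptidase read 3.16, 4.69 and 4.26 in the knockdown-labelled arrays, against 4.85, 4.35 and 4.67 in the controls, so that array 1 was far below the rest and the groups overlapped. Its difference was −0.59 with a 95% interval of −1.24 to 0.06, and −0.15 without knockdown-labelled array 1. CTSS, a protease best known from antigen-presenting cells, read 3.36 to 3.88 in the knockdown-labelled arrays, against 3.84 to 4.27 in the controls, with a difference of −0.38 ± 0.19 (SE). Knockdown-labelled array 2 lay above the lowest control for this gene.

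**Figure D3:**
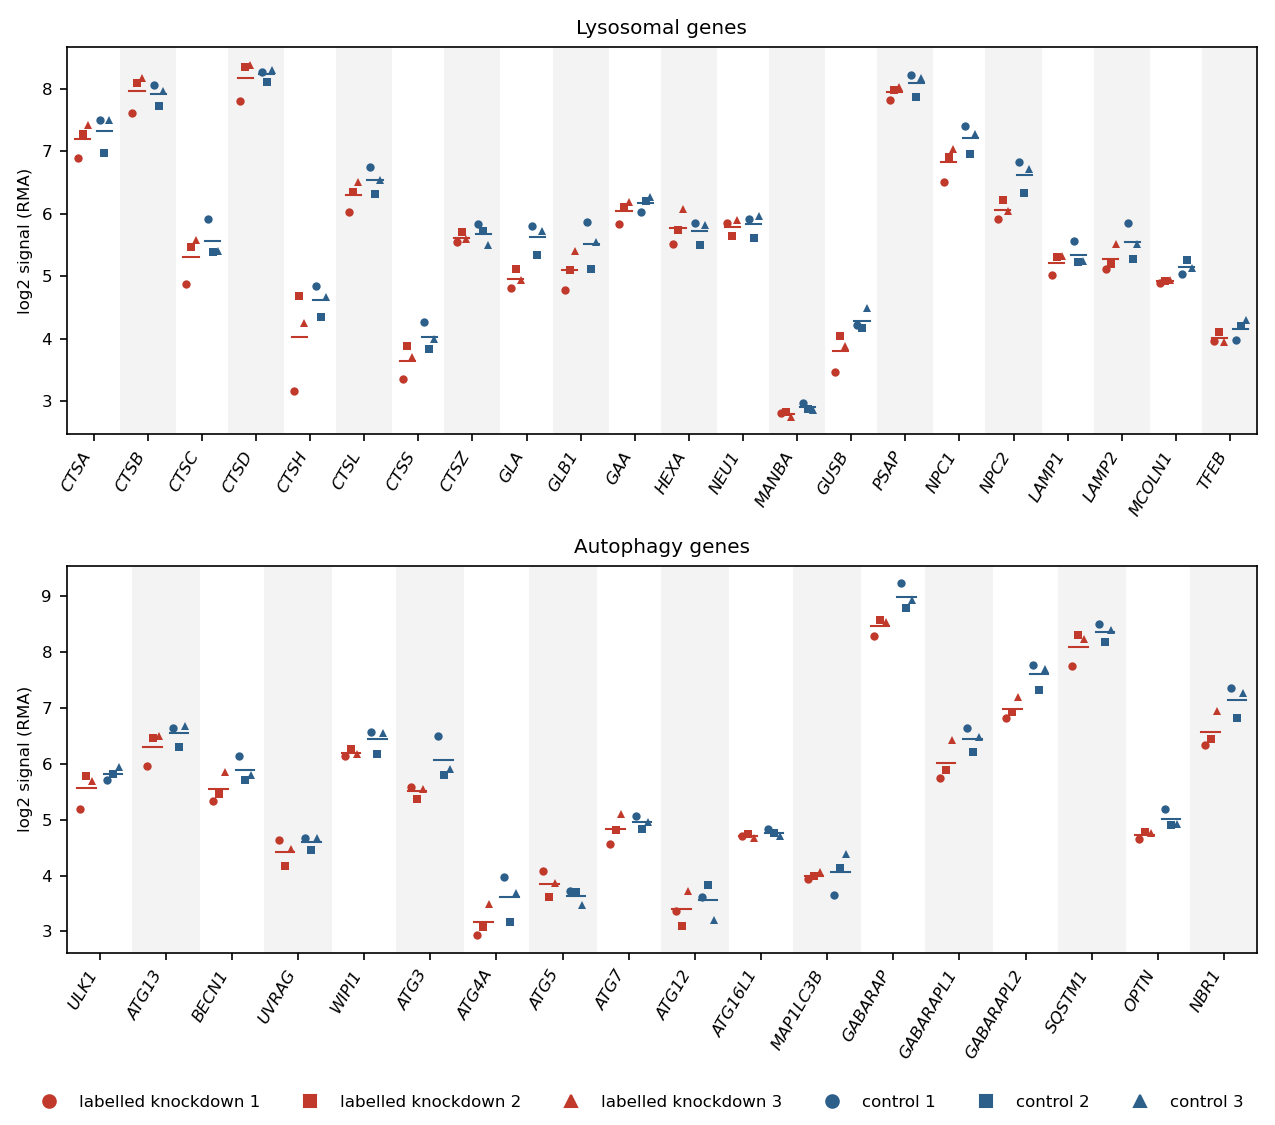
Log2 RMA signal of each of the 40 genes (horizontal axis) in the 3 knockdown-labelled arrays (red, left in each pair) and the 3 control arrays (blue), with group means as lines and replicate numbers as symbols. The groups separate for GLA, GUSB, NPC2, ATG3, GABARAP, GABARAPL2, MANBA, MCOLN1 and OPTN. Of these, MANBA, MCOLN1 and OPTN have the smallest differences, at −0.11, −0.22 and −0.29.

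Among the 7 glycosidases, GLA had the most negative difference on the deposited values. Of all 40 genes it was also the lowest there, but CTSH was lower after quantile normalization or cyclic loess and without knockdown-labelled array 2, and ATG3 was lower without knockdown-labelled array 1 or control array 3. Without knockdown-labelled array 3 the lowest was NBR1, at −0.75. GLA encodes alpha-galactosidase A, the enzyme missing in Fabry disease (probe set 8174076). It read 4.82, 5.12 and 4.95 in the knockdown-labelled arrays, against 5.81, 5.34 and 5.73 in the controls, with no overlap. The difference was −0.66 with a 95% interval of −1.04 to −0.28, a change of −36.8% in signal, and it did not pass the threshold (limma adjusted p = 0.273). Over the 14 alternative settings it ran from −0.81 to −0.48, and it passed only with array weights (limma adjusted p = 0.0437).

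GUSB, a beta-glucuronidase (probe set 8139859), read 3.47, 4.05 and 3.89 in the knockdown-labelled arrays, against 4.23, 4.17 and 4.49 in the controls, again with no overlap. Its difference was −0.49 ± 0.19 (SE, limma adjusted p = 0.351), and −0.32 without knockdown-labelled array 1. A further 7 probe sets that name GUSB together with its pseudogenes were not used, and signal from such copies cannot be told apart, so this gene is uncertain. GLB1, the beta-galactosidase stained as a mark of senescent cells, was at −0.41 with a 95% interval of −0.88 to 0.06, and its groups overlapped.

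The other glycosidases lay near 0. HEXA, the alpha subunit of beta-hexosaminidase A, was at 0.05, and NEU1, a sialidase, at −0.03. The 2 other probe sets of NEU1 held identical values and gave a difference of 0.01. GAA, the acid alpha-glucosidase that digests glycogen, was at −0.13. MANBA, a beta-mannosidase, read 2.81, 2.82 and 2.76 in the knockdown-labelled arrays, against 2.98, 2.88 and 2.86 in the controls. Its groups did not overlap, but the difference was only −0.11, with a 95% interval of −0.44 to 0.22 at a dim signal. The median of the 7 glycosidases was −0.13, and it was −0.22 after quantile normalization and −0.21 after cyclic loess.

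Of the genes of lysosomal lipid handling, NPC2 read lowest relative to control. NPC2 is a soluble cholesterol-binding protein that hands cholesterol to the membrane protein NPC1 for export. NPC2 (probe set 7980146) read 5.91, 6.22 and 6.05 in the knockdown-labelled arrays, against 6.82, 6.34 and 6.72 in the controls. The groups did not overlap, and the difference was −0.57 (95% interval −0.95 to −0.18, limma adjusted p = 0.289), and the scaled values were −0.33 (quantile) and −0.31 (cyclic loess). NPC1 read 6.51, 6.92 and 7.05, against 7.40, 6.97 and 7.28 in the controls, and knockdown-labelled array 3 lay above control array 2. Its difference was −0.39, and −0.23 without knockdown-labelled array 1. PSAP, the precursor of the saposins that help hydrolases reach lipids, was at −0.14, and at 0.09 after quantile normalization.

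Proteins of the lysosomal membrane showed small differences. LAMP1 and LAMP2, which coat the inner face of the membrane, were at −0.13 and −0.27, both with overlap, and LAMP1 was at 0.02 after quantile normalization. MCOLN1, a calcium channel of the lysosome, read 4.90, 4.93 and 4.94 in the knockdown-labelled arrays, against 5.04, 5.26 and 5.14 in the controls. These arrays separated without overlap over a narrow range, and the difference was −0.22 with a 95% interval of −0.56 to 0.11. TFEB read 3.97, 4.11 and 3.96, against 3.99, 4.20 and 4.30 in the controls, with overlap and a difference of −0.15 (95% interval −0.50 to 0.19).

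Promoters of many lysosomal genes are known to carry an E-box that TFEB reads, and it is shown here beside the values of the genes that hold it. Of the 40 genes 33 had a promoter entry in RefSeq (GRCh38.p14), running from 250 bases before to 50 bases after the annotated start. CTSB, CTSS, HEXA, LAMP2, MANBA, PSAP and UVRAG had none. The E-box core CACGTG reads the same on both strands, and it was present in 6 of 16 lysosomal and 1 of 17 autophagy genes, against 10.9% of the 14239 tested genes with an entry and 7.26% of all 35116 promoters. The longer palindrome, in which GT stands before that core and AC after it, was present in GAA (at 2 places) and MCOLN1 (at 1). It was present in 0.646% of the tested genes with an entry and in 0.353% of all promoters. These are matches of letters and not measured binding.

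The windows below are 100 bases each and end upstream of the annotated start, with CACGTG in capitals. Those of GAA (chr17:80101481-80101580, plus strand), MCOLN1 (chr19:7522524-7522623, plus), CTSA (chr20:45891235-45891334, plus) and CTSD (chr11:1763928-1764027, minus) run from −100 to −1. That of NEU1 (chr6:31862872-31862971, minus) runs from −150 to −51 and that of LAMP1 (chr13:113297039-113297138, plus) from −200 to −101, where the core recurs 4 times. GLA (chrX:101407926-101408025, minus) and GABARAPL2 (chr16:75566279-75566378, plus), which had the most negative differences of the lysosomal and the autophagy genes on the deposited values (CTSH and ATG4A after quantile normalization), are shown from −100 to −1 for comparison, and hold no match.
GAA: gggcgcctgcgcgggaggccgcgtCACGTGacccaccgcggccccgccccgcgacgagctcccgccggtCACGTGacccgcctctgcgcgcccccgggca
MCOLN1: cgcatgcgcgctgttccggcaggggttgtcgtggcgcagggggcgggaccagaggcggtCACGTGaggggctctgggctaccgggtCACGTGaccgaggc
CTSA: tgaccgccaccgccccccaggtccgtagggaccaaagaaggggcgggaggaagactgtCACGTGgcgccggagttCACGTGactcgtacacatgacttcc
CTSD: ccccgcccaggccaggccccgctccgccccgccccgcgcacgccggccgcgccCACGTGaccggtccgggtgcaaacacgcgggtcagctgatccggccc
NEU1: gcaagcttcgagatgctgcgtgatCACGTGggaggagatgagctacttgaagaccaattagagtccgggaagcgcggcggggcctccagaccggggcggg
LAMP1: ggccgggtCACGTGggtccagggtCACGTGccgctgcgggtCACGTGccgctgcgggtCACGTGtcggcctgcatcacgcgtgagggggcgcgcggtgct
GLA: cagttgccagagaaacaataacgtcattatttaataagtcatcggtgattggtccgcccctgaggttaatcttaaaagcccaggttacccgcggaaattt
GABARAPL2: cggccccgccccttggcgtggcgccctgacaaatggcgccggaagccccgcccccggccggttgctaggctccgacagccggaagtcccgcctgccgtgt

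The lysosomal genes with the E-box core differed little between the groups. The 6 of them had differences from −0.22 (MCOLN1) to −0.03 (NEU1), with a median of −0.13. After cyclic loess CTSA, CTSD, GAA, LAMP1 and NEU1 were above 0, and MCOLN1 was at −0.08. The 10 lysosomal genes with an entry and no match ran from −0.66 (GLA) to −0.07 (CTSZ), with a median of −0.40, so the 2 ranges overlapped. After cyclic loess these 10 ran from −0.54 (CTSH) to 0.15 (CTSZ), and CTSL was at 0.02. On the deposited values, relative to the median of each gene's quintile, the medians were 0.12 with the core and −0.15 without it. This split was made after the values were known and was not tested. ATG3, with matches at −18 and 6, was at −0.56. Over the brightest quintile of all genes the median was −0.23 for 389 genes with the core and −0.26 for 2588 without it.

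**Figure D4:**
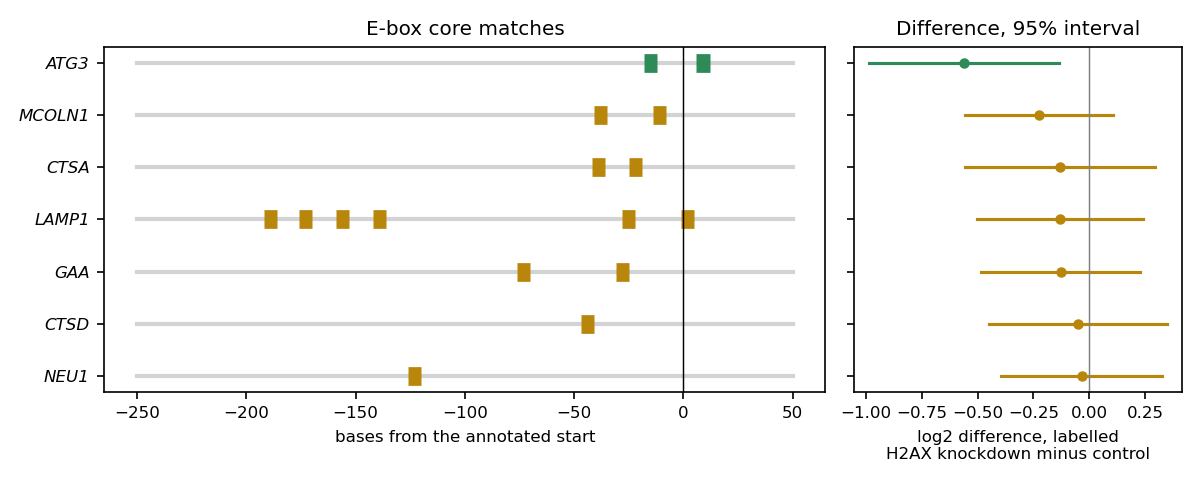
Left, matches of the E-box core (blocks, to scale) in the promoters of the 7 genes that hold it, in bases from the annotated start; right, the log2 difference of each gene, knockdown-labelled minus control, with its 95% interval from limma. The intervals of the 6 lysosomal genes (gold) include 0, while that of ATG3 (green) does not before adjustment.

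All 5 genes that start autophagosome formation were below 0 as deposited and after quantile normalization, and 3 of the 5 after cyclic loess. ULK1, the kinase that receives nutrient signals, was at −0.26, and ATG13, its partner subunit, at −0.25. BECN1 and UVRAG, subunits of the lipid kinase complex that marks the growing membrane, were at −0.33 and −0.17, and WIPI1, which binds the lipid made there, at −0.24. The groups of all 5 overlapped, and the lowest adjusted p was 0.479 for BECN1 (limma). Without knockdown-labelled array 1 ULK1 was at −0.08 and ATG13 at −0.07, while UVRAG was at −0.28 and BECN1 at −0.23. After quantile normalization the median of the 5 was −0.09, against −0.25 as deposited, and after cyclic loess ATG13 and WIPI1 were at 0.01.

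The conjugation machinery was mixed. ATG3, the enzyme that transfers ATG8 proteins to lipid (probe set 8089527), read 5.59, 5.37 and 5.55 in the knockdown-labelled arrays, against 6.51, 5.79 and 5.90 in the controls. The groups did not overlap, and control array 1 was far above the other controls. The difference was −0.56 (95% interval −0.99 to −0.14, limma adjusted p = 0.326), and it was −0.34 without control array 1, −0.36 after quantile normalization and −0.34 after cyclic loess. ATG4A, a protease that trims ATG8 proteins, was at −0.45 with overlap.

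ATG5 was the only autophagy gene above 0 on the deposited values, and it stayed above 0 in the 13 alternative settings that tested it. ATG5, which is joined to ATG12 in the complex that guides lipid coupling, read 4.08, 3.61 and 3.87 in the knockdown-labelled arrays, against 3.73, 3.71 and 3.48 in the controls. The groups overlapped, and the difference was 0.22 with a 95% interval of −0.16 to 0.59. ATG12 was at −0.16, ATG16L1, the third protein of that complex, at −0.06, and ATG7, which activates both ATG8 proteins and ATG12, at −0.12. None of these 3 had a 95% interval that left out 0.

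The ATG8 family had the most negative median of the groups, at −0.47 over 4 genes, or −0.29 after quantile normalization, −0.23 after cyclic loess and −0.36 without knockdown-labelled array 1. GABARAPL2 (probe set 7997272) read 6.81, 6.93 and 7.20 in the knockdown-labelled arrays, against 7.77, 7.32 and 7.70 in the controls. The difference was −0.62 with a 95% interval of −1.01 to −0.23, a change of −34.9% in signal (limma adjusted p = 0.279). It ran from −0.76 to −0.35 over the 14 alternative settings and passed only with array weights (limma adjusted p = 0.0469).

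GABARAP (probe set 8012110) read 8.28, 8.57 and 8.53 in the knockdown-labelled arrays, against 9.23, 8.80 and 8.93 in the controls, also without overlap. Its difference was −0.53 (95% interval −0.90 to −0.15, limma adjusted p = 0.306), or −0.29 after cyclic loess. GABARAPL1 was at −0.42, and there knockdown-labelled array 3, at 6.42, lay above control array 2, at 6.21. MAP1LC3B, which encodes the LC3 protein used to count autophagosomes, read 3.94 to 4.07, against 3.65 to 4.38 in the controls, which spanned the knockdown-labelled arrays. Its difference was −0.06 with a 95% interval of −0.47 to 0.36, and 1 probe set that also names a near-identical copy was not used. Whether MAP1LC3B differed from the GABARAP genes in its response was not tested.

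Among the cargo receptors, NBR1 was lowest relative to control. NBR1, which brings ubiquitin-tagged cargo and protein clumps to autophagosomes (probe set 8007471), read 6.34, 6.45 and 6.94 in the knockdown-labelled arrays, against 7.35, 6.82 and 7.27 in the controls. Knockdown-labelled array 3 lay above control array 2, so the groups overlapped. The difference was −0.57 (95% interval −1.01 to −0.13, limma adjusted p = 0.327), and the scaled values were −0.33 (quantile) and −0.30 (cyclic loess). OPTN, a receptor for bacteria and mitochondria, read 4.65, 4.77 and 4.75, against 5.19, 4.91 and 4.93 in the controls, without overlap and with a difference of −0.29 ± 0.16 (SE). SQSTM1, which encodes the receptor p62 and is itself degraded by autophagy, was at −0.26 with overlap, at −0.04 after quantile normalization and at −0.08 without knockdown-labelled array 1.

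**Figure D5:**
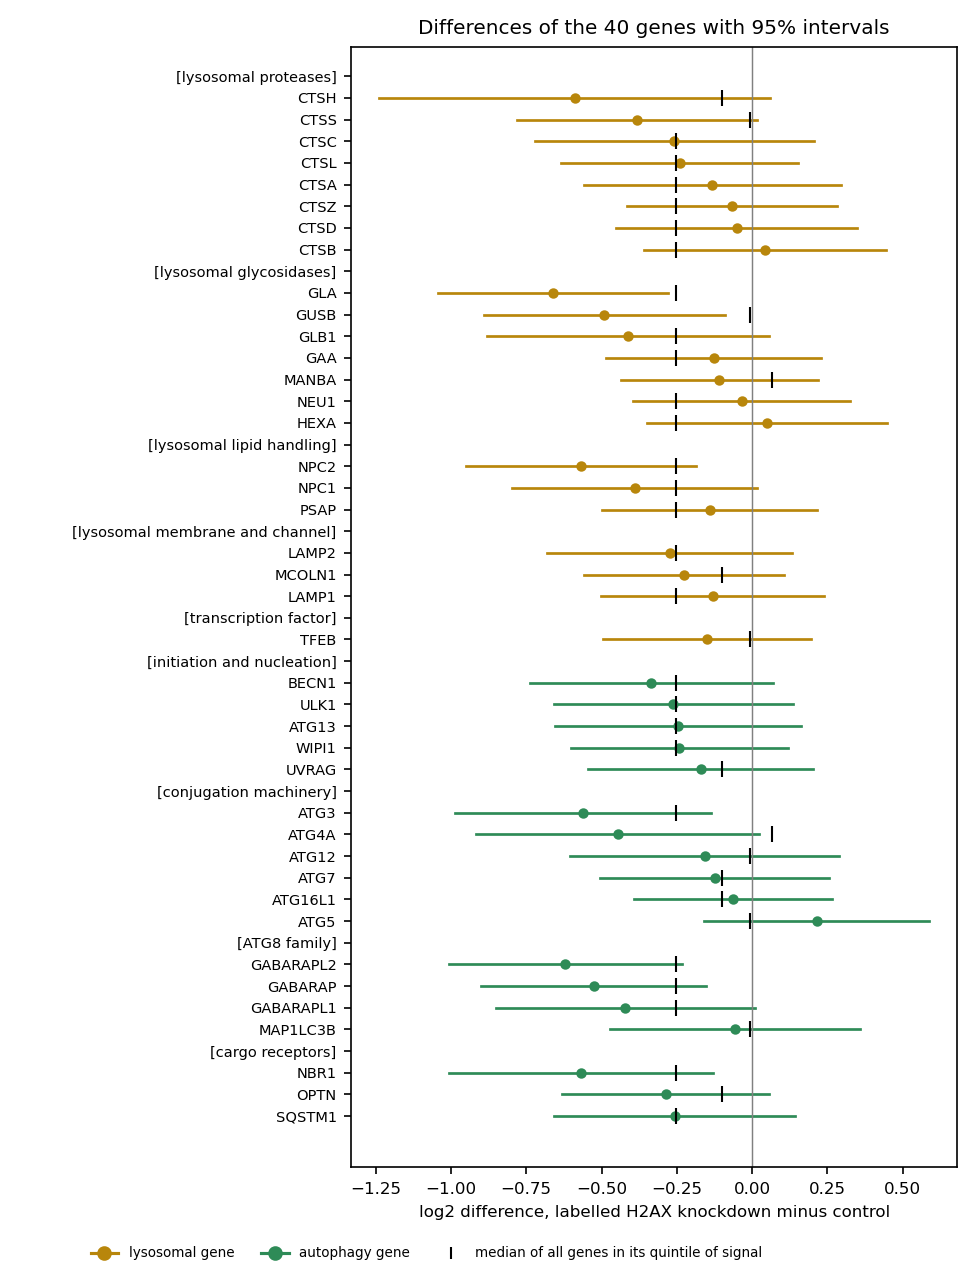
Log2 difference, arrays labelled H2AX knockdown minus control, of the 40 genes by role, with 95% intervals from limma (deposited values, before adjustment), and the median of all genes in the same quintile of signal as a black tick. The intervals of 7 genes leave out 0, and of these only the intervals of GLA and GUSB also leave out the tick; among the other genes that of ATG4A does.

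Other genes of the same pathways were counted from lists. Of 41 measured autophagy factors outside the 40 genes, 1 passed the threshold: VAMP8, a SNARE protein that fuses autophagosomes with lysosomes. VAMP8 read 4.95, 4.79 and 4.86 in the knockdown-labelled arrays, against 6.39, 6.06 and 6.10 in the controls, far apart and with a difference of −1.32 (limma adjusted p = 0.016). Its adjusted p was 0.0578 after quantile normalization and 0.0829 after cyclic loess, and leaving out single arrays it passed only without knockdown-labelled array 3. It was 0.0538 and 0.14 without knockdown-labelled arrays 1 and 2, and 0.172, 0.0575 and 0.0982 without control arrays 1, 2 and 3 (limma). The median of these 41 genes was −0.24, or −0.15 after quantile normalization. Before adjustment 8 of them (19.5%) were lower at 0.05 and 0 higher (limma), against 8.38% and 3.78% of all genes, and 5 were lower after cyclic loess and 5 without knockdown-labelled array 1. Their median signal lay at the 66.5th percentile, in the second brightest quintile. There 11.3% of all genes were lower and 1.55% higher, against 22.9% and 0.896% in the brightest.

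The subunits of the V-ATPase, the proton pump that acidifies lysosomes, were below 0 in all 17 cases, and in 14 with either quantile normalization or cyclic loess. None passed the threshold, and 5 (29.4%) were lower at an unadjusted p under 0.05 in limma, against 8.38% of all genes and 22.9% of the brightest quintile, where 85.3% were below 0. That count was 3 after quantile normalization, 3 after cyclic loess and 2 without knockdown-labelled array 1. The subunits were mostly bright, with a median at the 91.1th percentile of signal. Their median was −0.35, or −0.16 after quantile normalization, −0.12 after cyclic loess and −0.18 without knockdown-labelled array 1. ATP6AP2, an accessory subunit of the pump, read 7.42, 7.19 and 7.48 in the knockdown-labelled arrays, against 8.25, 7.98 and 7.92 in the controls, without overlap. Its difference was −0.69 with a limma adjusted p of 0.224, and ATP6V1C1, a subunit of the cytosolic part, was at −0.64 (limma adjusted p = 0.317). ATP6AP2 passed with array weights (limma adjusted p = 0.0488).

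The remaining lists held no gene past the threshold. Before adjustment, 5 of 25 other lysosomal enzymes and cofactors were lower and 0 higher at 0.05 (limma), with a median of −0.13, beside 8.38% and 3.78% of all genes. The count was 1 lower and 1 higher after quantile normalization, 1 lower and 2 higher after cyclic loess, and 2 lower without knockdown-labelled array 1. The median signal of these 25 lay at the 80.3th percentile, at the lower end of the brightest quintile. In that quintile 22.9% of all genes were lower, and 11.3% in the second brightest. The examples were GM2A, an activator of ganglioside breakdown, at −0.60, and CTSF, a further cathepsin, at −0.57. Of 22 other lysosomal membrane and sorting proteins 6 (27.3%) were lower and 0 higher, with a median of −0.10. Their median signal lay at the 68.0th percentile, in the second brightest quintile. After quantile normalization 5 were lower, against 5.58% of all genes, with a median of −0.12. After cyclic loess 3 were lower, against 5.2%, with a median of −0.11. Without knockdown-labelled array 1 it was 3, against 5.33%, with a median of −0.06. LAPTM4A and LAPTM4B, membrane proteins of late endosomes and lysosomes, were at −0.67 and −0.55. Of 22 regulators around the nutrient-sensing kinase MTOR and the TFEB family 1 was lower and 0 higher, or 4 lower with array medians subtracted, with a median of −0.11 that was 0.01 without knockdown-labelled array 1. TFE3 and MITF, relatives of TFEB, were at −0.42 and −0.41 (limma adjusted p = 0.374 and 0.419).

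Markers of cell type were read beside these genes, since macrophages are rich in cathepsins and fibroblasts could grow among cultured cells. Of 12 measured macrophage and blood markers 4 were below 0, against 8 with quantile normalization and 7 with cyclic loess. Their median was 0.10 as deposited, and −0.04 and −0.03 under those scalings. At an unadjusted p under 0.05 CD68 was lower and AIF1 higher (limma, 8.38% and 3.78% of all genes). Their summed linear signal was 413 to 508 in the knockdown-labelled arrays, against 550 to 686 in the controls. Without CD68, itself a lysosomal glycoprotein, it was 111 to 114, against 101 to 136 in the controls. PTPRC, which marks white blood cells, read 1.94 to 2.45 in the knockdown-labelled arrays, against 1.95 to 2.26 in the controls.

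All 9 fibroblast markers were above 0, or 8 after quantile normalization or subtraction of array medians. Their median was 0.34 as deposited, 0.27 after quantile normalization, 0.26 after cyclic loess and 0.18 without knockdown-labelled array 1. Relative to the median of each marker's quintile it was 0.31, and 0 of the 9 lay below that quintile median. POSTN and LUM, matrix proteins, were higher at an unadjusted p under 0.05 (limma), against 3.78% of all genes. Both lay in the dimmest quintile, where 8.77% were higher at that p and only 18.3% were below 0. The groups overlapped for LUM. The summed fibroblast signal was 107 to 128 in the knockdown-labelled arrays, against 89.7 to 112 in the controls. Of 7 epithelial markers 4 were below 0, against 3 with quantile normalization and 1 with cyclic loess. Their median was −0.12 as deposited, and 0.01 and 0.02 under those scalings. The keratin KRT8 read 9.73 to 10.04 in the knockdown-labelled arrays, against 9.44 to 9.83 in the controls, and the keratin KRT18 read 7.91 to 8.79, against 8.40 to 8.92 in the controls. EPCAM, an epithelial adhesion protein, was dim, at 2.46 to 2.72 in the knockdown-labelled arrays, against 2.28 to 2.52 in the controls. Of 6 endothelial markers 5 were above 0, with a median of 0.07 that turned to −0.04 after quantile normalization and −0.02 after cyclic loess. None of the markers passed the threshold (limma), and the single markers named were chosen after their values were seen. The part of these cell types in the differences of the 40 genes was not tested.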

How the data were processed

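RNA of A549 stable cells was measured on Affymetrix arrays, 3 labelled H2AX knockdown and 3 control, grouped by sample title. The values are log2 signals of 33297 probe sets made by the authors with RMA, per the submitters' processing notes; the RMA version is not given in the sources used here. Their log2 scale was read from the values. RMA compresses differences of dim probe sets, and signal over background could not be read, so no gene was called absent; the number of arrays limits the precision. Of the probe sets 19460 had 1 gene in GEO's platform annotation (possibly outdated), and 18417 genes were tested with no filter. The 40 genes had 1 such probe set each except NEU1, which had 3.

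All genes were fitted with limma 3.58.1 in R 4.3.3 (lmFit and eBayes, no covariate, knockdown-labelled minus control, 2-sided, Benjamini-Hochberg over all genes, threshold 0.05). Values after ± are standard errors where marked. Genes were placed in 5 equal groups by mean signal over the 6 arrays. Named were the 40 genes, H2AX, and of each further pathway list the genes past the threshold or, where none passed, the 2 with the smallest p. Cell type markers were given by list. The genes and lists were chosen with earlier results of these data known, and support nothing by their choice. Promoters came from RefSeq (GRCh38.p14) and were searched for exact letters. In simulated arrays of this comparison with 18417 genes, limma recovered 59% of 100 genes with a true log2 change of 1. It recovered 98% of 100 with a change of 2, with 9 false among 166 calls. Noise was drawn independently for each gene with no shift by signal, unlike the measured arrays. Changes as small as the differences of the 40 genes were not simulated. Figures were drawn with matplotlib 3.10.9.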

Additional observations from a re-analysis of the deposited data

How the results depend on the processing

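The 14 alternatives changed the scaling (quantile normalization, cyclic loess, subtraction of array medians), the model (replicate block, array weights, robust variances with a trend), the features (genes at or above the median signal, probe sets averaged per gene) or the arrays (1 left out at a time). The count of genes past the threshold, 6 as reported, was 3 with the replicate block, 16 with the filter, 0 after quantile normalization, 0 after cyclic loess, 3 with probe sets averaged and 191 with array weights (limma), and 0 to 9 with single arrays left out; the cause was not tested. Of the 40 genes 2 passed with array weights, GLA and GABARAPL2 (−0.69 and −0.68), and 0 in the 13 other settings, where 4 to 13 were past an unadjusted p of 0.05 in limma. For arrays of the same replicate number the correlations of deviations were −0.31, −0.02 and 0.07. Those of unlike numbers ran from −0.39 to 0.37, so these few values cannot decide whether the arrays are paired. The block changed no call among the 40 genes. H2AX ran from 0.01 to 0.27. The medians kept their sign, from −0.28 to −0.07 for the lysosomal genes and from −0.36 to −0.10 for the autophagy genes.

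Of the 40 genes 24 kept their sign in all settings that tested them, and 16 turned it in at least 1, none of them past the threshold either way. After quantile normalization CTSA was at 0.10, CTSD at 0.17, CTSZ at 0.11, GAA at 0.10, NEU1 at 0.18, PSAP at 0.091, LAMP1 at 0.018 and ATG16L1 at 0.038. After cyclic loess CTSA was at 0.14, CTSD at 0.20, CTSL at 0.018, CTSZ at 0.15, GAA at 0.12, NEU1 at 0.19, PSAP at 0.11, LAMP1 at 0.046, ATG13 at 0.013, WIPI1 at 0.013, ATG7 at 0.0045 and ATG16L1 at 0.044. Subtraction of array medians put CTSB at −0.0052, and array weights put CTSZ at 0.082 and ATG12 at 0.036. With single arrays left out, CTSA ran from −0.30 to 0.021, CTSB from −0.062 to 0.21, CTSD from −0.15 to 0.14, CTSZ from −0.16 to 0.0076, HEXA from −0.10 to 0.18, NEU1 from −0.14 to 0.044, ATG7 from −0.26 to 0.010 and MAP1LC3B from −0.26 to 0.11. Settings for the genes outside the 40 were chosen after seeing the data: VAMP8 ran from −1.38 to −1.11 and kept its call in 7 of 14.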
